A study of Mus musculus with 4 samples.

Results

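Low-cycling thymocytes with the surface gene pattern of the double-negative 3 (DN3) stage were compared between a preleukemic Tal1/Lmo2 thymus (PL) and 2 leukemic thymi of the same line (T-ALL#1 and T-ALL#2, T-ALL standing for T-cell acute lymphoblastic leukemia). The cells were chosen from their own transcript counts. A gated cell had 0 unique molecular identifiers (UMIs) of Cd4, Cd8a, Cd8b1 and Cd44, at least 1 UMI of Il2ra, and fewer than 3 summed UMIs per 10000 of the 6 cell-cycle genes Mki67, Top2a, Pclaf, Rrm2, Tyms and Birc5. This gave 363 cells of the 13324 kept in the 3 libraries and of the 17544 kept in the whole series, namely 242 from PL, 44 from T-ALL#1 and 77 from T-ALL#2. The same gate took 31 cells from the wild type thymus (WT), which served as the control level and entered no test.

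All mice were of the FVB/N strain. PL and both leukemias carried Tal1 and Lmo2 as transgenes, which the proximal Lck promoter drives in developing T cells. WT and PL were 6 weeks old and the leukemic mice 3 months old, and the effects of age and of leukemia cannot be told apart. The labels give WT, PL and T-ALL#2 as male and T-ALL#1 as female. In the gated cells Xist was present at 2395, 1826 and 2011 CPM (UMIs of a gene per 1000000 UMIs of the library's gated cells) in WT, PL and T-ALL#1 and absent in T-ALL#2, and 4 Y-linked genes together had 196 UMIs in T-ALL#2 and 0 in the other libraries, so WT and PL did not match their labelled sex. Each library came from 1 mouse, sorted for viable single cells from whole thymus. Transcripts were counted by droplet-based 3′ sequencing with more than 1 version of the chemistry. The version used for each library is not given in the sources used here.

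DN3 is the stage at which thymocytes have committed to the T lineage, carry CD25 (encoded by Il2ra) without CD4, CD8 or CD44, and rearrange the genes of the T-cell receptor beta, gamma and delta chains. Notch1 is a receptor that, once bound by a ligand on thymic stroma, is cleaved and joins the DNA-binding protein RBPJ to switch on genes such as Hes1, Dtx1 and Ptcra. A productive beta chain pairs with the pre-T alpha chain encoded by Ptcra, and the resulting pre-T-cell receptor (pre-TCR) sets off cell division. TAL1 and LMO2 sit in 1 protein complex and dampen the E proteins that otherwise drive this programme, and cells at DN3 that rest between divisions have been studied as a reservoir of leukemia-initiating cells.

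Gated cells made up 4.34% of kept cells in PL (exact 95% interval 3.82 to 4.91), 0.762% in T-ALL#1 (0.554 to 1.02), 3.90% in T-ALL#2 (3.09 to 4.85) and 0.735% in WT (0.500 to 1.04). The libraries differed in how many cells lacked the lineage genes and in how many carried Il2ra. Cells with 0 UMIs of Cd4, Cd8a, Cd8b1 and Cd44 were 54.8% of kept cells in PL, against 7.50% in T-ALL#1, 15.0% in T-ALL#2 and 6.85% in WT. Of these cells, only 11.6% in PL had a UMI of Il2ra, compared with 34.2% and 77.0% in the leukemias. In PL the gate therefore drew on a wide pool of cells without UMIs of the lineage genes, few of which had Il2ra, and in the leukemias on a smaller pool. Leukemic cells carried Il2ra also outside the gate, with a UMI in 66.0% of all kept cells of T-ALL#1 and 76.3% of T-ALL#2 against 10.1% in PL. These Il2ra shares are at unlike depth, with a median kept cell of 4888 UMIs in PL, 8742 in T-ALL#1 and 17581 in T-ALL#2. Among cells with B or myeloid markers, 0 of 15 had a UMI of Il2ra in PL, 4 of 13 (30.8%) in T-ALL#1 and 0 of 5 in T-ALL#2, at median depths of 4954, 4417 and 4640 UMIs. In T-ALL#1 a UMI of Il2ra thus also occurred in cells with markers of other lineages, but 13 cells are too few to set a background share. Whether these cells made Il2ra, were doublets or held free RNA was not tested, and neither was the part of background in the T-ALL#1 gate. Among gated cells, 118 of 242 in PL, 21 of 44 in T-ALL#1 and 14 of 77 in T-ALL#2 had 1 UMI of Il2ra and no more.

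Before the limit on cell-cycle UMIs, 355 cells of PL, 148 of T-ALL#1, 228 of T-ALL#2 and 41 of WT passed the gate. Low-cycling cells were 68.2% of them in PL (63.0 to 73.0), 29.7% in T-ALL#1 (22.5 to 37.8), 33.8% in T-ALL#2 (27.7 to 40.3) and 75.6% in WT (59.7 to 87.6). The highest value inside the limit and the lowest outside it were 2.99 and 3.03 per 10000 in PL, 2.97 and 3.23 in T-ALL#1, and 2.94 and 3.06 in T-ALL#2. The medians inside and outside were 0 and 13.6 in PL, 0.247 and 29.2 in T-ALL#1, and 0.922 and 14.8 in T-ALL#2. Values from 2 up to the limit were held by 24 cells in PL, 2 in T-ALL#1 and 13 in T-ALL#2, and values from the limit up to 4 by 14, 3 and 7 cells. These shares follow from the rule that chose the cells and are a description.

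**Figure D1:**
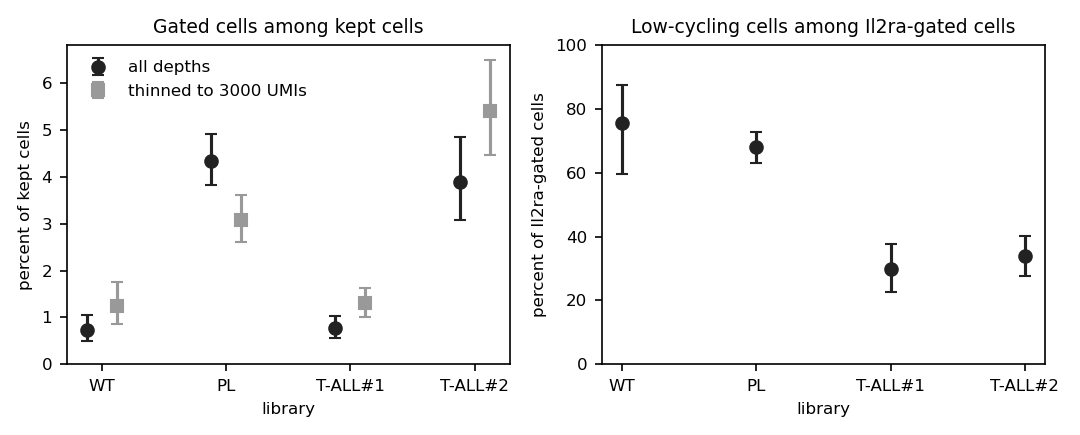
Left, gated cells as a percent of kept cells in each library, at all depths (circles) and with each cell thinned to 3000 UMIs (squares). Right, low-cycling cells as a percent of Il2ra-gated cells. Bars are exact 95% intervals and cover counting error only. PL and T-ALL#2 lie above WT and T-ALL#1 on the left, and both leukemias lie below PL and WT on the right.

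Depth differed between the libraries. The median gated cell held 7885.5 UMIs in PL, 11419 in T-ALL#1, 15739 in T-ALL#2 and 8407 in WT, and the UMIs summed over gated cells were 2114484, 499308, 1242514 and 294364. Thinned to 3000 UMIs per cell, the gated share was 3.08% in PL, 1.30% in T-ALL#1, 5.42% in T-ALL#2 and 1.25% in WT, so that T-ALL#2 then lay above PL. Among cells in a shared depth window, from the lower limit of T-ALL#2 cells to 12000 UMIs, the share was 4.96% in PL and 1.69% in T-ALL#2. It was 2.22% and 3.19% when 2 UMIs of Il2ra were asked for, so the order of PL and T-ALL#2 was not stable. Pairs of libraries shared between 0 and 9 barcodes among kept cells.

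The label DN3 was checked against Ptcra, Notch1, Notch3, Dtx1 and Hes1, which the gate did not use. Levels are TMM-scaled CPM, that is CPM divided by a factor that centres most genes on PL. Gated WT cells carried all of them, and gated PL cells kept Notch1 while nearly lacking Ptcra, Notch3 and Hes1. Hes1, a repressor and a direct Notch target, stood at 302 CPM in WT, 8.99 in PL, 202 in T-ALL#1 and 199 in T-ALL#2. Dtx1, a ubiquitin ligase and Notch target, stood at 154 CPM in WT, 34.1 in PL, 301 in T-ALL#1 and 215 in T-ALL#2. For both genes PL was the lowest library. In both leukemias Hes1 lay below WT and Dtx1 above it. With cells thinned to 3000 UMIs, Hes1 stood at 394 CPM in WT, 300 in T-ALL#1 and 172 in T-ALL#2.

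Ptcra stood at 592 CPM in WT, 12.8 in PL, 57.1 in T-ALL#1 and 17.5 in T-ALL#2. It was low in all 3 transgenic libraries, and the 27 UMIs of PL came from 2 of its 242 cells, 26 of them from 1 cell. Notch3, a second Notch receptor that the pre-TCR stage expresses, stood at 176 CPM in WT, 14.2 in PL, 32.9 in T-ALL#1 and 28.5 in T-ALL#2. Notch1 itself stood at 636 CPM in WT, 257 in PL, 286 in T-ALL#1 and 336 in T-ALL#2. Il2ra, which chose the cells, stood at 1223 CPM in WT and at 318, 332 and 331 CPM in PL, T-ALL#1 and T-ALL#2. The marker check thus goes against the label DN3 in PL, where 4 of the 5 markers lay far below WT, and in part in the leukemias, where Ptcra and Notch3 did. The cells are called gated cells from here on.

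**Figure D2:**
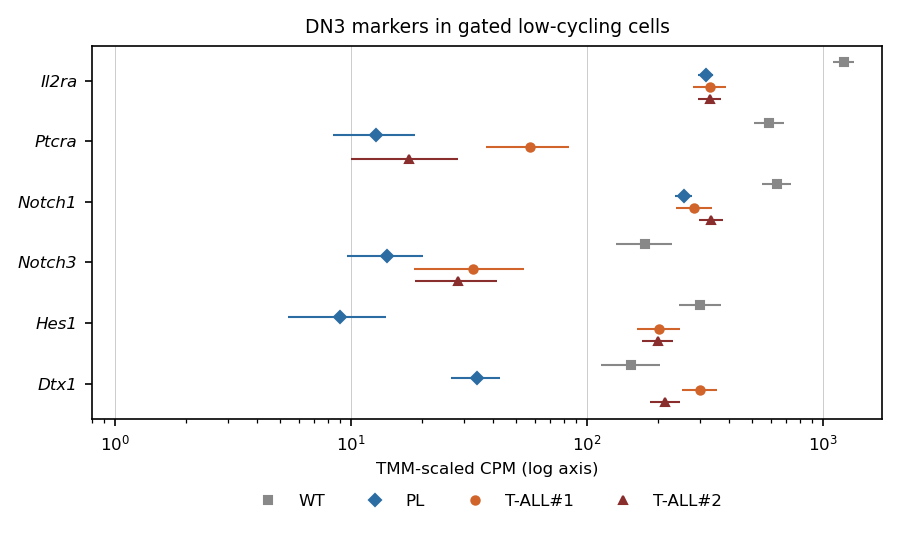
Levels of Il2ra and of 5 further DN3 markers in gated cells as TMM-scaled CPM on a log axis. Points are the sums of gated cells of WT, PL, T-ALL#1 and T-ALL#2, and lines are exact Poisson 95% intervals that cover counting error only. Hes1 and Dtx1 in PL lie to the left of the other 3 libraries, and Ptcra and Notch3 of WT lie to the right of the 3 transgenic libraries.

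The DNA before a RefSeq start of 2 of these genes is shown because the 2 parted in the leukemias, with Dtx1 at or above its WT level and Ptcra below it. The windows are the 250 bases upstream of the RefSeq start in build GRCm38.p6, on the minus strand, at chr17:46763713-46763962 for Ptcra and chr5:120711670-120711919 for Dtx1. Capitals mark TGGGAA, letters that RBPJ can bind, and CAGCTG, letters that E proteins can bind.
Ptcra: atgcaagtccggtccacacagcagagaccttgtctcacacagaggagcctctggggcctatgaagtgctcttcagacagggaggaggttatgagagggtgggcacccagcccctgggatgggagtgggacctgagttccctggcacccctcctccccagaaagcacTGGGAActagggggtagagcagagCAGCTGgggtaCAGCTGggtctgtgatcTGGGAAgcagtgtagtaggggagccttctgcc
Dtx1: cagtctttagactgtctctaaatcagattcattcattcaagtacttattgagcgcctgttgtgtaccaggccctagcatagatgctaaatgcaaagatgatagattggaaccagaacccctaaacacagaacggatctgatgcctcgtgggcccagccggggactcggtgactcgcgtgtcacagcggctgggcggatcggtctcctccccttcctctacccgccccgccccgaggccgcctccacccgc
In the Ptcra window TGGGAA begins 84 and 32 bases before the start and CAGCTG 60 and 49 bases before it. The Dtx1 window holds neither. By the bounds of the Dtx1 gene given below, from another annotation, this window lies inside the gene. The lack of matches therefore does not describe the DNA upstream of the whole gene. TGGGAA was found on either strand in 21.6% of the 32851 RefSeq windows of this length, with at least 2 matches in 2.77%. The E-box was searched as CAGCTG and also with its middle letters changed, as CAGGTG, or alternatively as CAGATG, and was found on either strand in 38.1%, with at least 2 matches in 9.43%. These matches describe letters and not bound sites. Hes1 has no window in the table used.

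To ask which genes differ between preleukemic and leukemic gated cells, UMIs were summed over the gated cells of each library and 4818 genes with a mean of at least 25 CPM were tested with the edgeR quasi-likelihood test and Benjamini-Hochberg adjustment at 0.05. The test set 1 PL library against 2 leukemic libraries, so that PL was assumed to vary like the leukemias. The only spread between libraries of a group was that between the 2 leukemias. For most genes the test used a spread fitted over all genes in place of the gene's own. Its p-values therefore do not measure how preleukemic mice vary. In this test 89 genes (1.85% of those tested) were higher in the leukemic libraries and 143 (2.97%) were lower, and 642 had an unadjusted p under 0.05. Counts of called list members are read against these shares of all genes. The count rested on the scaling and the tool, with 30 higher and 66 lower under library totals and 40 higher and 29 lower under the Wald test of DESeq2. Under DESeq2 the calls were therefore mostly higher, where edgeR gave mostly lower ones. Against PL with no test, T-ALL#1 had 222 genes (4.61%) at least 2-fold higher and 328 (6.81%) at least 2-fold lower with a counting interval of the ratio that did not hold 1. T-ALL#2 had 472 (9.80%) higher and 534 (11.1%) lower. Both comparisons share the PL library. The log2 ratio of the median gene was 0.01 for T-ALL#1 and 0.07 for T-ALL#2, after TMM factors that raised the levels by 0.13 and 0.45 on the log2 scale.

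Of the Notch genes, the targets Hes1 and Dtx1 passed the test. Notch1 was the only receptor with enough UMIs to be tested, and it did not pass. Hes1 (chromosome 16, 30064384 to 30067796, GRCm38) was 22.5-fold higher in T-ALL#1 than in PL (counting interval 13.6 to 39.0) and 22.2-fold higher in T-ALL#2 (13.8 to 37.7). Its log2 difference was 4.46 (SE 0.59, adjusted p = 1.18e-11, edgeR), in 2 of 2 leukemic libraries. A UMI of Hes1 was present in 12 of 242 PL cells, 28 of 44 T-ALL#1 cells, 62 of 77 T-ALL#2 cells and 19 of 31 WT cells. Thinned to 3000 UMIs, with 11 PL and 2 T-ALL#1 cells left out as too shallow, the shares were 1.30%, 35.7%, 31.2% and 41.9%, so PL stayed apart at equal depth. Among cells with B or myeloid markers, Hes1 had a UMI in 1 of 15 cells of PL, 3 of 13 of T-ALL#1 and 0 of 5 of T-ALL#2.

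Dtx1 (chromosome 5, 120680202 to 120711927) was 8.84-fold higher in T-ALL#1 (6.60 to 11.9) and 6.31-fold higher in T-ALL#2 (4.79 to 8.38), with a log2 difference of 2.91 (SE 0.54, adjusted p = 4.60e-06, edgeR). Heyl, a further Notch target, was too low to be tested, with 2 UMIs in PL against 13 and 42 in the leukemias. Its ratio to PL was 30.2 (6.83 to 276) in T-ALL#1 and 48.6 (12.7 to 415) in T-ALL#2. Nrarp, which encodes a feedback inhibitor of Notch, had 0, 8 and 5 UMIs in the same order. Igf1r, a growth factor receptor gene that Notch can induce, stood at 38.8, 119 and 52.6 CPM and did not pass (adjusted p = 0.250).

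Notch1 (chromosome 2, 26457903 to 26516663) was 1.11-fold (0.909 to 1.35) and 1.31-fold (1.13 to 1.51) the PL level and did not pass the edgeR test (adjusted p = 0.877), and its direction turned under library totals. Rbpj, the DNA-binding partner of cleaved Notch, stood at 57.7 CPM in PL, 59.3 in T-ALL#1 and 51.5 in T-ALL#2 (adjusted p = 0.978). Myc, which Notch1 drives in many T-cell leukemias, stood at 64.3, 90.1 and 75.6 CPM (adjusted p = 0.824). Ptcra was 4.47-fold (2.51 to 7.96) and 1.37-fold (0.691 to 2.64) the PL level (adjusted p = 0.216), a level that rests on the 1 PL cell named above. Of 13 measured genes of the Notch list, 2 were higher (15.4%, against 1.85% of all genes), 0 were lower and 11 did not pass. The log2 ratios of the listed genes had a median of 0.41 for T-ALL#1 and 0.32 for T-ALL#2, the latter falling below 0 under library totals.

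The constant genes of the T-cell receptor differed by chain. Trac (chromosome 14, 54220521 to 54224206), the alpha chain gene that is expressed after the beta chain, stood at 75.6 CPM in WT, 36.4 in PL, 492 in T-ALL#1 and 192 in T-ALL#2. It was 13.5-fold (10.4 to 17.7) and 5.26-fold (4.00 to 6.98) higher than in PL, with a log2 difference of 3.21 (SE 0.57, adjusted p = 1.57e-06, edgeR). A UMI of Trac was present in 44 of 242 PL cells and in 33 of 44 and 56 of 77 leukemic cells. Both leukemias lay above PL and WT.

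Trdc (chromosome 14, 54142851 to 54148868), the delta chain gene, stood at 362 CPM in WT, 736 in PL, 2.20 in T-ALL#1 and 222 in T-ALL#2. T-ALL#1 had 1 UMI of Trdc where T-ALL#2 had a UMI in 64 of 77 cells, and the difference from PL did not pass (adjusted p = 0.869, edgeR). The gamma chain genes were lower in both leukemias than in PL. Tcrg-C1 stood at 464 CPM in PL, 96.6 in T-ALL#1 and 21.9 in T-ALL#2 (log2 difference -3.06, SE 0.47, adjusted p = 2.31e-08, edgeR), and Tcrg-C2 and Tcrg-C4 fell as well. Of the 14 genes of the pre-TCR and CD3 list, Trac alone was higher (7.14%, against 1.85% of all genes), none was lower and 13 did not pass. Zap70, the kinase that binds the engaged receptor, was 2.13-fold and 2.17-fold the PL level without passing (adjusted p = 0.214). Rag1, whose product cuts receptor genes for rearrangement, fell from 108 CPM in PL to 61.5 and 23.0 CPM (log2 difference -1.44, SE 0.47, adjusted p = 0.0426, edgeR). Dntt, which encodes the enzyme that adds bases at the joins, stood at 1283, 643 and 530 CPM in the same order (adjusted p = 0.388).

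Genes of gamma-delta T cells were checked because the gate can hold such cells. Of 6 measured genes of the 11 listed, 4 fell (66.7%, against 2.97% of all genes), 0 rose and 2 did not pass. The 4 were Rora and the 3 gamma chain genes. Rora, a nuclear receptor of innate-like lymphocytes, stood at 207 CPM in PL, 37.3 in T-ALL#1, 6.57 in T-ALL#2 and 15.8 in WT (log2 difference -3.44, SE 0.49, adjusted p = 6.21e-10, edgeR). It had a UMI in 132 of 242 PL cells. The summed level of the 11 genes in unscaled CPM was 2973 in WT, 3107 in PL, 617 in T-ALL#1 and 449 in T-ALL#2. Blk was at 0 in WT, PL and T-ALL#1, and Maf was at 0 in T-ALL#2. Leaving out cells with a UMI of Rora, Cd226, Il18r1 or Maf, a choice made after seeing the data, left 106 PL, 34 T-ALL#1 and 69 T-ALL#2 cells. All 25 named genes and markers tested there kept their direction and their side of the threshold, Hes1 and Dtx1 among them. Most of these genes were chosen for large ratios in these same cells, which made this likely.

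The beta chain constant genes divided the gated cells of PL and T-ALL#1 into classes. Trbc1 and Trbc2 are alternative constant genes of the beta chain. Trbc1 stood at 1377 CPM in WT, 1581 in PL, 2012 in T-ALL#1 and 1.10 in T-ALL#2, and Trbc2 at 1412, 3192, 2746 and 4670 CPM. More UMIs of Trbc1 than of Trbc2 were found in 78 of 242 PL cells (32.2%, 26.4 to 38.5), 17 of 44 T-ALL#1 cells (38.6%, 24.4 to 54.5), 0 of 77 T-ALL#2 cells (upper limit 4.68%) and 10 of 31 WT cells. Among all kept cells of T-ALL#1 the share was 9.60% (8.85 to 10.4), so the gated cells of T-ALL#1 lay above their own library beyond the counting intervals. T-ALL#2 was uniform, with 1 UMI of Trbc1 against 4263 of Trbc2.

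**Figure D3:**
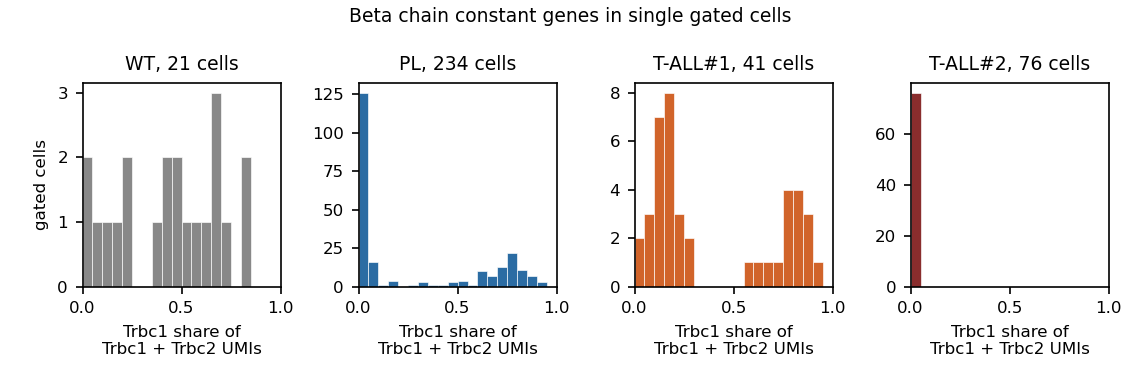
Share of Trbc1 in the summed UMIs of Trbc1 and Trbc2 in single gated cells with at least 10 such UMIs, 1 panel for each library, with the number of cells on the vertical axis. PL has 142 of 234 cells under 0.1 and 73 at 0.6 or above. T-ALL#1 has 25 of 41 cells under 0.3 and 15 at 0.6 or above, and all 76 cells of T-ALL#2 lie under 0.1.

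The 2 classes of T-ALL#1 cells differed in the level of several genes, given here in unscaled CPM without a test, since the classes were set after seeing the data and their cells come from 1 mouse. The 27 cells without more Trbc1 held 233109 of the 499308 UMIs of gated T-ALL#1 cells and were shallower, so counts of cells with a UMI are at unlike depth. Tal1 stood at 293 CPM (232 to 366) in the 17 cells with more Trbc1, each of which had a UMI of it, and at 60.1 CPM (32.8 to 101) in the 27 other cells, of which 9 had one. Klf2 stood at 207 and 55.8 CPM in the same order, Igfbp4 at 301 and 47.2 CPM, and Trac at 612 and 262 CPM. Ptcra had 0 UMIs in the cells with more Trbc1 and stood at 112 CPM in the others. Dtx1 stood at 188 and 373 CPM and Lmo4 at 86.4 and 343 CPM. The counting intervals of Hes1 overlapped between the classes, at 203 (152 to 265) and 163 (115 to 224) CPM, and Gm266 stood at 263 and 292 CPM. Leaving out the T-ALL#1 cells with more Trbc1 lowered the genes called by edgeR to 54 higher and 84 lower. In PL, Trdc stood at 1371 CPM in the cells with more Trbc1 and 403 CPM in those with more Trbc2, and Dtx1 at 64.2 and 18.7 CPM.

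The transgene Tal1 was present in gated cells of every transgenic library, at 379 CPM in PL, 202 in T-ALL#1 and 239 in T-ALL#2, with 0 UMIs in WT. The leukemic levels did not pass against PL (log2 difference -0.78, SE 0.48, adjusted p = 0.528, edgeR). Lmo2 had 6, 1 and 0 UMIs in the same order, and whether the transgene's transcripts are counted under this gene is not given in the sources used here. Id2, which encodes an inhibitor of E proteins, rose from 27.4 CPM in PL to 90.1 and 73.4 CPM (log2 difference 1.56, SE 0.50, adjusted p = 0.0378, edgeR). Id3, a second inhibitor that T-cell receptor signals induce, stood at 1.42, 41.7 and 288 CPM and did not pass (adjusted p = 0.0683). Id1 had 4 and 1 UMIs in PL and T-ALL#1 and stood at 107 CPM in T-ALL#2. Myb stood at 691, 312 and 241 CPM (adjusted p = 0.148). Of 11 measured genes of the Tal1 complex and E protein list, Id2 was higher (9.09%, against 1.85% of all genes), 0 were lower and 10 did not pass. The E protein gene Tcf12 stood at 477, 595 and 603 CPM (adjusted p = 0.874).

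Of 11 measured target genes of TAL1 and LMO2, 1 rose (9.09%, against 1.85% of all genes) and 2 fell (18.2%, against 2.97%). The study had named these targets on these samples, which makes the list no independent evidence of direction. By the 2-fold rule without a test, 4 were higher and 3 lower in T-ALL#1, against 4.61% and 6.81% of all genes. In T-ALL#2, 0 were higher and 7 lower, against 9.80% and 11.1%. Gimap4 rose from 39.3 CPM in PL to 246 and 76.7 CPM (log2 difference 2.00, SE 0.50, adjusted p = 0.00276, edgeR), while its neighbours in the same family, Gimap6 and Gimap7, fell. The rise of Gimap4 lay mainly in T-ALL#1, and in T-ALL#2 it did not reach the 2-fold limit. Gimap7 went from 110 CPM in PL to 17.6 and 6.57 CPM (log2 difference -3.33, SE 0.54, adjusted p = 5.51e-08), and Gimap6 from 312 CPM to 138 and 23.0 CPM (adjusted p = 0.0174). These genes encode small GTPases of lymphocyte survival, and the family did not move in 1 direction. The listed genes had a median log2 ratio of 0.08 for T-ALL#1 and -1.47 for T-ALL#2, the former falling below 0 under library totals.

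The genes higher in both leukemias by the widest margin were a mixed group of transcription factors, signaling genes and Notch targets. All 12 that the rule named passed the edgeR test. They were chosen by their ratios in the same sums that the test used, so passing is no separate support. Gm266, a gene of chromosome 12 (111484609 to 111485823) of which no role is stated here, had 0 UMIs in WT and PL and stood at 303 CPM in T-ALL#1 and 330 CPM in T-ALL#2. Against a floor of 3 UMIs in PL the level was at least 214-fold higher in T-ALL#1 and at least 232-fold higher in T-ALL#2 (adjusted p = 6.26e-22, edgeR). It was detected in both leukemias alone. Gm266 was also present at 186 CPM in the empty droplets of T-ALL#2, which held 1.53 UMIs each on average. Free RNA of these droplets also held Hes1 (95.4 CPM), Dtx1 (141 CPM) and Il2ra (133 CPM), and its part in the T-ALL#2 levels was not tested.

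Among the others, Fosb, an AP-1 subunit, stood at 5.20 CPM in PL, 169 in T-ALL#1 and 171 in T-ALL#2 (ratios to PL of 32.5 and 32.9, adjusted p = 6.47e-13, edgeR), and 35 of its 156 UMIs in T-ALL#2 came from 1 cell. Lmo4, a LIM-only protein of the same family as Lmo2, stood at 14.2, 226 and 299 CPM (log2 difference 4.21, SE 0.59, adjusted p = 1.50e-10). Ikzf3, which encodes the zinc finger factor Aiolos, stood at 7.09, 112 and 106 CPM (log2 difference 3.92, SE 0.60, adjusted p = 7.53e-09) and had a UMI in 15 of 242 PL cells against 27 of 44 and 52 of 77 leukemic cells. For these 3 genes the leukemias lay close together and far above both PL and WT.

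Rgs10, a regulator of G protein signaling, stood at 45.4, 628 and 467 CPM in PL, T-ALL#1 and T-ALL#2 (log2 difference 3.59, SE 0.64, adjusted p = 1.57e-06, edgeR). H1f0, a linker histone of resting cells, stood at 7.09, 156 and 102 CPM, and Trf, which encodes transferrin, at 11.4, 211 and 114 CPM. Pitpnm2 stood at 16.1, 112 and 131 CPM and Wdr25 at 22.7, 130 and 140 CPM. Ifi202b, an interferon-inducible gene, stood at 9.46, 123 and 135 CPM, but its 56 UMIs in T-ALL#1 all came from 10 cells with more Trbc1 than Trbc2. Without those cells it no longer passed (log2 difference 3.04, adjusted p = 0.978, edgeR).

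**Figure D4:**
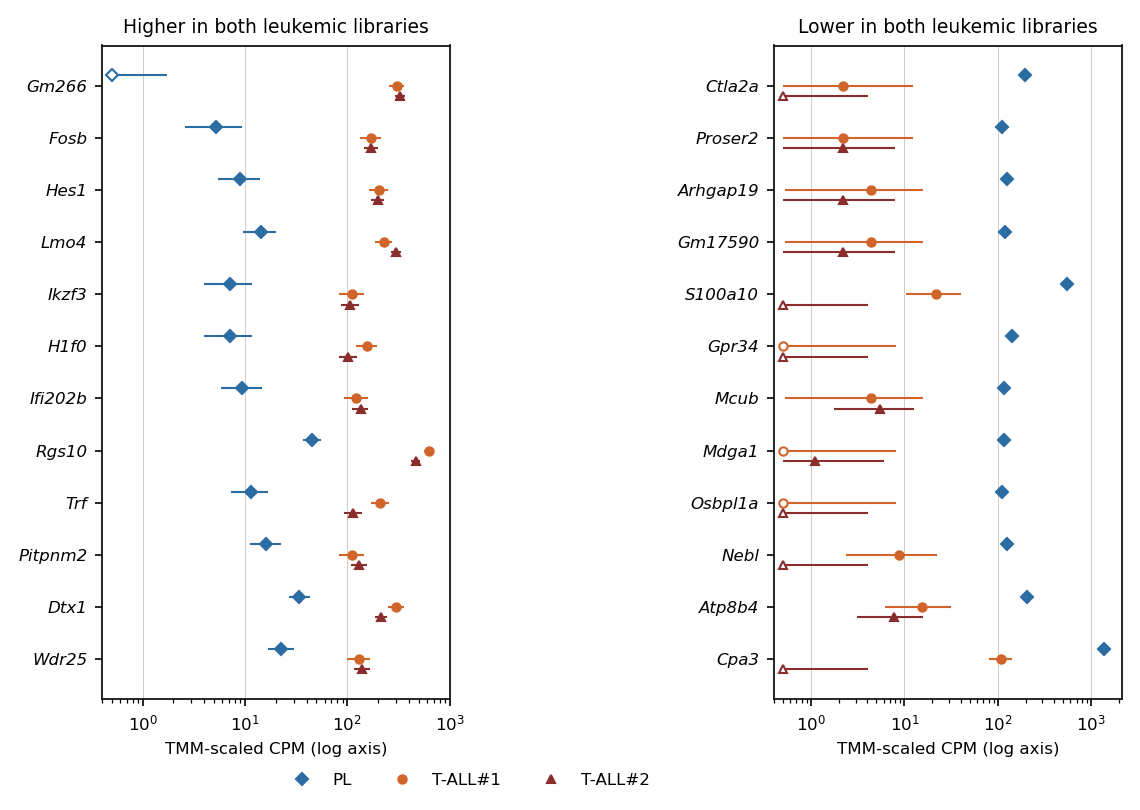
TMM-scaled CPM on a log axis of the 12 genes higher in both leukemic libraries by the widest margin (left) and of the 12 genes lower by the widest margin (right), in gated cells of PL, T-ALL#1 and T-ALL#2. Lines are exact Poisson 95% intervals, and open symbols at the left edge mark 0 UMIs. The points of PL do not overlap those of the leukemias in either panel, which follows from the choice of genes.

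Of the 12 genes lower by the widest margin, also chosen by their ratios in the tested sums, 11 passed the edgeR test. Of these, Ctla2a, S100a10 and Nebl did not pass with DESeq2. Cpa3, which encodes a mast cell carboxypeptidase that early progenitors also express, was the one that did not pass with edgeR. It stood at 1384 CPM in PL, where 211 of 242 cells had a UMI, at 108 CPM in T-ALL#1, and had 0 UMIs in T-ALL#2 and WT. The PL level was 12.9-fold that of T-ALL#1 (9.70 to 17.4) and at least 421-fold that of T-ALL#2 (adjusted p = 0.815). Cpa3 did pass with thinned cells, without any cycle UMI and in the shared depth window. In T-ALL#1 its 49 UMIs lay in 5 cells and 35 of them in 1 cell. Cpa3 is also on the mast and progenitor marker list. Of that list's other genes, Gata2, Fcer1a and Mcpt1 were at 0 in all 4 libraries, and Kit had 37 UMIs in PL and 0 in both leukemias.

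Ctla2a, a cysteine protease inhibitor gene, had 416 UMIs in PL (197 CPM), 1 in T-ALL#1 and 0 in T-ALL#2 (adjusted p = 1.39e-21, edgeR, and 0.199 with DESeq2). Gpr34, a receptor for a lysophospholipid, had 298 UMIs in PL (141 CPM) and 0 in both leukemias, and was at least 21.4-fold and at least 42.9-fold lower there (adjusted p = 8.99e-21). Osbpl1a, an oxysterol-binding protein gene, had 235 UMIs in PL (111 CPM) and 0 in both leukemias, and was at least 16.9-fold and at least 33.8-fold lower (adjusted p = 1.83e-17). These 3 genes were nearly confined to PL among the transgenic libraries.

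S100a10, which encodes a partner of annexin A2, stood at 545 CPM in PL, 22.0 in T-ALL#1 and 0 in T-ALL#2 (adjusted p = 5.03e-08, edgeR), a call lost under library totals (adjusted p = 0.393). Atp8b4, a lipid flippase gene, stood at 205, 15.4 and 7.67 CPM (log2 difference -4.26, SE 0.52, adjusted p = 9.32e-14). Mcub, a subunit of the mitochondrial calcium channel, stood at 116, 4.39 and 5.48 CPM (log2 difference -4.49, SE 0.59, adjusted p = 1.03e-11). The remaining genes were Proser2, Arhgap19, Gm17590, Mdga1 and Nebl, which stood between 112 and 127 CPM in PL and between 0 and 8.79 CPM in the leukemias. In WT the 12 genes stood at a range of levels. Mcub (183 CPM), S100a10 (180 CPM) and Gm17590 (120 CPM) were also present in WT cells. Arhgap19, Gpr34 and Osbpl1a were low there, at 3.15, 6.30 and 9.45 CPM, and Cpa3, Proser2 and Mdga1 had 0 UMIs. Ctla2a, Nebl and Atp8b4 lay between these. The WT sum is small, so 0 UMIs in it cannot be told apart from a low level.

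Progenitor genes were mostly too low to be tested, and only 1 of 16 was measured. Cd93, a receptor of early progenitors, fell from 90.3 CPM in PL to 8.79 and 2.19 CPM (log2 difference -4.28, SE 0.61, adjusted p = 4.73e-10, edgeR), with 28.4 CPM in WT. Lyl1, a close relative of Tal1, had 135 UMIs in PL, 0 in T-ALL#1 and 1 in T-ALL#2.

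Of 9 measured cytokine genes 2 fell (22.2%), of 7 survival genes 1 fell (14.3%) and of 8 homing genes 2 fell (25%), against 2.97% of all genes tested. Stat5a, which relays signals of the interleukin 2 and interleukin 7 receptors, fell from 392 CPM in PL to 147 and 34.0 CPM (log2 difference -2.18, SE 0.46, adjusted p = 1.93e-04, edgeR). Stat5b, its close relative, fell from 189 CPM to 79.1 and 55.9 CPM (log2 difference -1.51, SE 0.44, adjusted p = 0.0192). Bcl2, an inhibitor of apoptosis, fell from 156 CPM to 41.7 and 17.5 CPM (log2 difference -2.49, SE 0.47, adjusted p = 1.02e-05), below the 239 CPM of WT. WT stood at 97.7 CPM of Stat5a and 72.5 CPM of Stat5b, below PL and T-ALL#1 for both. Levels of all 3 genes were lowest in T-ALL#2.

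The other 7 cytokine genes and 6 survival genes did not pass. Bax, which promotes apoptosis, stood at 108, 290 and 306 CPM in PL, T-ALL#1 and T-ALL#2 without passing (adjusted p = 0.0728). Il7r stood at 81.8, 103 and 24.1 CPM (adjusted p = 0.761). Il22 had 22 UMIs in T-ALL#1 and 0 in the other 3 libraries, and Iltifb, its near-identical copy, had 28 in T-ALL#1, 10 in T-ALL#2 and 0 in PL and WT. Reads could be split between these copies, so neither count is certain. Among the homing genes, Itga4, an integrin chain, fell from 240 CPM in PL to 68.1 and 17.5 CPM (adjusted p = 1.76e-06), and Ccr9, the receptor that draws progenitors to the thymus and gut, fell from 232 CPM to 114 and 19.7 CPM (adjusted p = 0.0190).

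Quiescence factors were examined in these cells gated on low cycling. Of 19 measured, some of which the study had named on these samples, Klf2 rose (5.26% of the list) and Txnip fell (5.26%), against 1.85% and 2.97% of all genes, which gives no result about the list, and 17 did not pass, with a median log2 ratio of -0.38 for T-ALL#1 and -0.55 for T-ALL#2. Klf2, a factor that keeps T cells at rest, rose from 28.4 CPM in PL to 149 and 160 CPM (log2 difference 2.44, SE 0.51, adjusted p = 1.14e-04, edgeR). Txnip, which restrains glucose uptake, fell from 253 CPM to 90.1 and 49.3 CPM (log2 difference -1.90, SE 0.44, adjusted p = 7.68e-04). Foxo3 stood at 87.0, 30.7 and 34.0 CPM (adjusted p = 0.0519) and Zfp36l2 at 495, 187 and 263 CPM (adjusted p = 0.219). Btg1 stood at 339, 477 and 229 CPM and Cdkn1b, which encodes the cell-cycle inhibitor p27, at 129, 83.5 and 104 CPM.

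Of 12 glycolysis genes measured 3 rose (25%, against 1.85% of all genes) and 0 fell, with a median log2 ratio of 0.99 for T-ALL#1 and 1.38 for T-ALL#2. Pkm, a pyruvate kinase gene, rose from 276 CPM in PL to 1206 and 1400 CPM (log2 difference 2.24, SE 0.70, adjusted p = 0.0317, edgeR). Tpi1, of the same pathway, rose from 99.8 CPM to 413 and 437 CPM (log2 difference 2.09, SE 0.55, adjusted p = 0.00581), and Aldoa was the third. Gapdh stood at 1032, 1968 and 2901 CPM (adjusted p = 0.464) and Ldha at 421, 876 and 1104 CPM (adjusted p = 0.384). WT levels of Pkm and Tpi1 were 189 and 81.9 CPM, below those of PL.

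Of 14 genes of Myc and biosynthesis, 1 was higher (7.14%, against 1.85% of all genes) and 0 were lower in the edgeR test. The gene called was Srm, which makes spermidine and rose from 43.5 CPM to 98.8 and 169 CPM (adjusted p = 0.0214, edgeR). By the fold rule, 3 of the 14 were higher in T-ALL#1, against 4.61% of all genes, and 10 in T-ALL#2, against 9.80%. In both leukemias 0 were lower by that rule. The median log2 ratio of the 14 was 0.50 for T-ALL#1 and 1.17 for T-ALL#2. Cell-cycle genes outside the gate gave 0 calls among 14 in the edgeR test and a median log2 ratio of -0.12 and 0.69. By the fold rule, 1 of them was lower in T-ALL#1, against 6.81% of all genes, and 3 were higher in T-ALL#2, against 9.80%. Gated cells of T-ALL#2 also had the highest median of gate cycle UMIs.

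Of 12 immediate early and stress genes measured 3 rose (25%, against 1.85% of all genes) and 0 fell in the edgeR test. By the fold rule, 5 of the 12 were higher and 0 lower in T-ALL#1, against 4.61% and 6.81% of all genes. In T-ALL#2, 7 were higher and 2 lower, against 9.80% and 11.1%, so the list did not move in 1 direction there. The median log2 ratio was 0.86 for T-ALL#1 and 1.23 for T-ALL#2. Beside Fosb, Fos rose from 12.3 CPM in PL to 132 and 55.9 CPM (log2 difference 2.88, SE 0.55, adjusted p = 1.08e-05, edgeR). Egr1, which receptor signals induce, had 3 UMIs in PL, 21 in T-ALL#1 and 49 in T-ALL#2, a ratio to PL of 32.5 (9.71 to 170) and 37.8 (12.2 to 190) (adjusted p = 8.66e-09). Jun stood at 173, 330 and 471 CPM in the transgenic libraries and at 627 CPM in WT (adjusted p = 0.232). These genes also respond to tissue handling, whose part in the result was not tested.

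Of 13 T-lineage factors measured, Ikzf3 was higher (7.69%, against 1.85% of all genes), 0 were lower and 12 did not pass. Tcf7 stood at 882, 567 and 595 CPM in PL, T-ALL#1 and T-ALL#2 (adjusted p = 0.742), Gata3 at 110, 204 and 179 CPM (adjusted p = 0.496), and Lef1 at 459, 1263 and 902 CPM (adjusted p = 0.392). Bcl11b, the factor of T-lineage commitment, stood at 1115 and 826 CPM in PL and T-ALL#1 and at 235 CPM in T-ALL#2 (adjusted p = 0.415). Of 8 MHC class I and interferon genes, 1 fell (12.5%, against 2.97% of all genes) and 7 did not pass. The gene was Isg15, which went from 96.0 CPM to 22.0 and 46.0 CPM (adjusted p = 0.0398, edgeR).

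**Figure D5:**
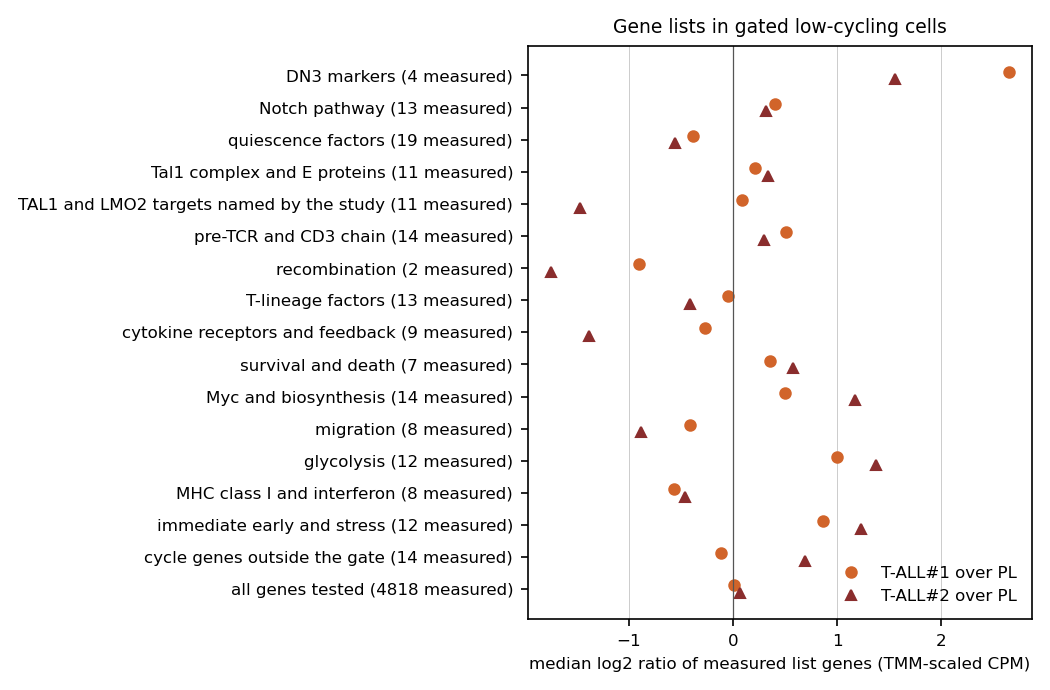
Median log2 ratio of TMM-scaled CPM over PL for the measured genes of each list, for T-ALL#1 (circles) and T-ALL#2 (triangles). The bottom row gives all 4818 genes tested, at 0.01 and 0.07. The medians of the glycolysis list and of the immediate early and stress list lie to the right in both leukemias. The points of the 2 leukemias share the PL library.

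Most gated cells held 2 markers of another cell type, namely 230 of 242 in PL, 42 of 44 in T-ALL#1 and 74 of 77 in T-ALL#2. Myeloid genes had 16, 2, 0 and 3 UMIs in all in WT, PL, T-ALL#1 and T-ALL#2, erythroid genes had 0 in each library, and stromal genes had 0 in both leukemias. T-ALL#1 had 78 UMIs of Cd74, 77 of them in 1 cell that also held all 12 UMIs of Cd79a. Cd74 did not pass the test (adjusted p = 0.834, edgeR). The regulatory T list had a summed level in unscaled CPM of 380 in WT, 707 in PL, 749 in T-ALL#1 and 296 in T-ALL#2, most of it Ikzf2 in the transgenic libraries and 46 of 112 UMIs in WT. Of the innate-like list, Tbx21 was at 0 in WT, PL and T-ALL#1, and Klrb1c and Ncr1 in all 4. Nkg7, a granule gene, fell from 83.7 CPM in PL to 2.20 CPM in T-ALL#1 and 0 in T-ALL#2 (adjusted p = 9.32e-14), while Gzma, which encodes a granule protease, stood at 689, 1588 and 2853 CPM (adjusted p = 0.212), with 433 of its 723 UMIs in T-ALL#1 in 5 cells. Leaving out every cell with 2 markers of another type left 12 PL, 2 T-ALL#1 and 3 T-ALL#2 cells, too few for any call, so the part of such cells in the results was tested in narrower steps only. Without cells holding Cd79a, Ms4a1, Cd74, Foxp3, Tnfrsf4, Lyz2 or Csf1r, a choice made after seeing the data, all 26 named genes and markers kept their direction and their side of the threshold. Most of these genes were chosen for large ratios in these same cells, which made this likely. In summed cells, fewer cells of a kind and less RNA per cell cannot be told apart.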

How the data were processed

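Thymocytes of 1 WT, 1 PL and 2 leukemic Tal1/Lmo2 mice were measured in 4 droplet libraries. The authors deposited counts, that is UMIs of 31053 genes per barcode with no normalization, aligned to mm10 per the labels. Per the file headers, the authors used Cell Ranger 3.0.2 for WT, PL and T-ALL#1 and Cell Ranger 4 for T-ALL#2, whose matrix holds empty droplets too. The software version and chemistry cannot be told apart from the animal.

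Barcodes with over 500 genes and under 10% mitochondrial UMIs were kept, and in T-ALL#2 also at least 3416 UMIs. Doublets were not called, and an upper limit on genes per cell removed no gated cell. Summed UMIs were scaled by TMM factors with PL as reference and tested in edgeR 4.0.16 (R 4.3.3) over genes of at least 25 mean CPM. Median prior degrees of freedom were infinite, so for most genes the gene's own spread did not enter. DESeq2 1.42.0 was an alternative. Ratios of 1 library to 1 library carry exact 95% conditional binomial intervals (Clopper-Pearson), levels exact Poisson intervals and shares exact Clopper-Pearson intervals, all for counting error only. Ratios against 0 UMIs used a floor of 3 UMIs per library. Coordinates are those of GENCODE M21 (GRCm38). The edgeR step was tested on simulated data.

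Named genes were, per direction, the 12 with the largest smaller log2 ratio of both leukemias, at 100 CPM or more in PL or in both leukemias, leaving out gate, mitochondrial, Xist and Y-linked genes and receptor segments, plus markers and up to 4 examples per list with the largest mean ratio. Further genes were chosen by their role. Genes, lists and gate were chosen with earlier results of these data known. The gate differs from that of the study, so its cells are not the study's dormant DN3 cells. Genes listed under more than 1 identifier were counted in lists without values.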

Additional observations from a re-analysis of the deposited data

How the results depend on the processing

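The results are limited by 44 T-ALL#1 cells and 1 library on the PL side. Of 386 gene-by-setting results for the 26 named genes and markers tested, 384 kept their direction. The exceptions were Nebl, with a log2 difference of 2.71 without cells with 2 markers of another type, and Notch1, with -0.0213 under library totals. Most of these genes were chosen for large ratios in these same cells, and the settings reuse the same UMIs. Kept direction was therefore largely set by the choice of genes and is a description. DESeq2 no longer called Ctla2a, S100a10 and Nebl. Cpa3 was called with thinned cells, without any cycle UMI and in cells of a shared depth window, which runs from the lower limit of T-ALL#2 cells to 12000 UMIs.

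The 232 genes called by edgeR became 96 under library totals, 458 with every gene of at least 1 UMI (13619 genes tested), 437 with the expression filter of edgeR (8851 tested), 69 with the Wald test of DESeq2, 147 without any UMI of the 6 cycle genes and 132 in the depth window. They became 0 without cells with 2 markers of another type (73 at an unadjusted p under 0.05) and, chosen after seeing the data, 138 without T-ALL#1 cells with more Trbc1. The cause was not tested, beyond the number of genes or cells that a setting leaves. The 550 genes past 2-fold in T-ALL#1 became 1296 with every gene, 1207 with the expression filter, 105 without cells with 2 markers and 121 past 4-fold. The 1006 in T-ALL#2 became 2466, 2251, 408 and 202, and 593 in the depth window. Without cells with 2 markers, the DN3 markers at least 2-fold above PL were 1 in each leukemia.

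The gated share of kept cells was 1.25% in WT, 3.08% in PL, 1.30% in T-ALL#1 and 5.42% in T-ALL#2 with thinned cells, and 0.450%, 2.55%, 0.381% and 0.608% without any cycle UMI. With at least 2 UMIs of Il2ra it was 2.22% in PL, 0.398% in T-ALL#1 and 3.19% in T-ALL#2, without cells with a UMI of Rora, Cd226, Il18r1 or Maf 1.90% in PL and 3.49% in T-ALL#2, and with fewer than 6 cycle UMIs per 10000 it was 5.37% in T-ALL#2. Leaving out a leukemia leaves 1 library on each side and no test, and the ratios of the other leukemia then stand as given. No paired analysis was possible because PL holds 1 library and the labels pair no samples.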
